A study of Mus musculus with 6 samples.

Results

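The genes described here are 42 mouse genes of the endoplasmic reticulum (ER) secretory pathway and the unfolded protein response. They were chosen by name and function, with earlier results of these data known. They were taken from the platform annotation by gene symbol, with 1 probe per gene (the probe with the highest mean log2 value over the 6 arrays). Of the 42 genes, 40 had a probe carrying that symbol alone, and 33 were tested among 8743 tested genes in all. A gene was tested where its detection p-value, the scanner software's test of a probe against negative controls, was under 0.05 on at least 3 of the 6 arrays.

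RNA came from regulatory T cells, CD4 T cells whose task is to hold immune responses in check. The cells were of the genotype Blimp1 gfp/gfp, in which both copies of Blimp1 carry a gfp allele, set against Blimp1 +/gfp, in which 1 copy does. Both genotypes therefore carried gfp. Both were of the C57/B6 strain, with bone marrow as the labelled tissue, 3 arrays each and no treatment or age stated. From general knowledge of this allele, cells with gfp on both copies lack functional Blimp-1, the transcriptional repressor encoded by Prdm1. The labels name no sort, gate or animal, so the spread between arrays of a genotype may be technical, and p-values measure only that spread.

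Proteins bound for the cell surface or for export enter the ER through the Sec61 channel, lose their signal peptide there, and are folded by chaperones and disulfide isomerases. When unfolded proteins build up, the sensors IRE1α (gene Ern1), ATF6 and PERK start the unfolded protein response, in which IRE1α splices Xbp1 mRNA and the factors XBP1, ATF6, ATF4 and CHOP alter transcription of ER genes. Blimp-1 is best known from antibody-secreting plasma cells, where it acts together with XBP1 in building the secretory machinery. The comparison asks whether transcripts of the same machinery differ in regulatory T cells without functional Blimp-1.

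Levels are given as log2 intensities after background correction and quantile normalization. A difference is Blimp1 gfp/gfp minus Blimp1 +/gfp on that scale, with the standard error (SE) of the limma fit. Adjusted p-values are Benjamini-Hochberg values over the 8743 genes, and a gene was called changed when its adjusted p was under 0.05. Differences of dim genes are understated on this scale, and the level of one probe cannot be set against that of another. In bulk RNA such as this, fewer cells of a type and less RNA per cell cannot be told apart.

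On the arrays 14694 to 16067 of 46632 probes were detected (31.5% to 34.5%). The labels place the 3 Blimp1 gfp/gfp arrays on 1 BeadChip and the 3 Blimp1 +/gfp arrays on another, so that an effect of the BeadChip cannot be told apart from one of genotype. All 8 regulatory T cell markers with a probe were detected on all 6 arrays, and the lineage factor Foxp3 had 11.44, 12.36 and 12.09 in Blimp1 gfp/gfp, against 11.85, 12.66 and 12.23 in Blimp1 +/gfp. Prdm1 itself was detected on 3 Blimp1 gfp/gfp arrays and on 1 Blimp1 +/gfp array. It had 7.14, 7.75 and 7.54 in Blimp1 gfp/gfp, against 5.76, 5.82 and 5.50 in Blimp1 +/gfp (difference 1.79 ± 0.20 SE, limma adjusted p = 0.00744). That call was lost for Prdm1 with the mean over kept probes (1.44, limma adjusted p = 0.102) and with its dimmest kept probe (1.09, limma adjusted p = 0.452). Without background correction Prdm1 was still called, with a smaller difference of 0.78 (limma adjusted p = 0.0126). Where its probe lies relative to the gfp cassette is not known here, so it is no check of the labels. The Y chromosome gene Eif2s3y was detected on no array of Blimp1 gfp/gfp, against all 3 of Blimp1 +/gfp. Xist, the RNA of the inactive X chromosome, had 9.89, 11.37 and 11.02 in Blimp1 gfp/gfp, against 9.69, 9.20 and 5.52 in Blimp1 +/gfp, so that Blimp1 +/gfp replicates 1 and 2 held both transcripts and replicate 3, where Xist was not detected, held Eif2s3y alone. The labels give no sex. Because Eif2s3y divided the arrays just as genotype did, an effect tied to it cannot be told apart from one of genotype. Any part of sex in the ER differences was not tested.

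Promoter windows of the ER genes are shown first because several hold the elements through which the unfolded protein response is known to act. RefSeq windows of 300 bases (250 before the annotated start and the first 50 after it, build GRCm38.p6) were matched for 34 of the 42 genes, with 35 windows, and set against all 32851 windows of the same table. The ER stress response element (ERSE, the letters CCAAT, a gap of any 9 bases and CCACG, on either strand), bound by ATF6 and XBP1 together with the factor NF-Y, was found in 8 of the 35 windows (22.9%) and in 39 of all 32851 windows (0.119%). The shorter ERSE-II (the letters ATTGG, any 1 base and CCACG, on either strand) was found in 2 of the 35 (5.71%), against 0.0365% of all windows. The genes were chosen by name for their part in this pathway and response, so these higher shares are no independent finding. A match of letters is a description and not a shown binding site. The matches are printed with the letters fixed by the motif in capitals, each 5′ to 3′ in the motif's own orientation.
Hspa5 (chr2:34772025-34772043): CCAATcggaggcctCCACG
Hsp90b1, farther from the start (chr10:86705638-86705656): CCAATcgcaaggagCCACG
Hsp90b1, nearer to the start (chr10:86705533-86705551): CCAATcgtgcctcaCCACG
Calr (chr8:84847075-84847093): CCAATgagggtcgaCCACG
Canx (chr11:50325800-50325818): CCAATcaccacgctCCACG
Pdia6 (chr12:17266491-17266509): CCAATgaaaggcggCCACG
Creld2 (chr15:88819520-88819538): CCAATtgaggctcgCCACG
Dnajc3 (chr14:118937827-118937845): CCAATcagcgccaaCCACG
Derl3 (chr10:75893242-75893260): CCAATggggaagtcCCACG
Herpud1, ERSE-II (chr8:94386377-94386387): ATTGGgCCACG
Dnajb11, ERSE-II (chr16:22857852-22857862): ATTGGcCCACG

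The C/EBP-ATF response element, bound by ATF4 with a C/EBP partner (CARE, letters TTGCATCA), was found in 1 of the 35 windows (2.86%), that of Herpud1, against 0.895% of all windows. The unfolded protein response element with the letters TGACGTGG was found in 0 of the 35 windows, against 0.676% of all windows. A core of the Blimp-1 recognition sequence (AGNGAAAG) was found in 3 of the 35 windows (8.57%), which belong to Derl2 and Sec61b, against 8.63% of all windows. Both strands were searched for each motif. The windows of Xbp1, Ddit3 and Ern1 held none of the 5 motifs, which says only that these letters are not in those windows.

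Hspa5 and Herpud1 are shown whole, since they were the genes with an ERSE or ERSE-II whose genotype difference had an unadjusted p under 0.05, with opposite signs. Hspa5 lies on the plus strand of chromosome 2, and the capitals mark the ERSE at bases -65 to -47 from the annotated start. Herpud1 lies on the plus strand of chromosome 8, and its capitals mark the CARE at -112 to -105 and the ERSE-II at -52 to -42.
Hspa5 (chr2:34771840-34772139, plus strand): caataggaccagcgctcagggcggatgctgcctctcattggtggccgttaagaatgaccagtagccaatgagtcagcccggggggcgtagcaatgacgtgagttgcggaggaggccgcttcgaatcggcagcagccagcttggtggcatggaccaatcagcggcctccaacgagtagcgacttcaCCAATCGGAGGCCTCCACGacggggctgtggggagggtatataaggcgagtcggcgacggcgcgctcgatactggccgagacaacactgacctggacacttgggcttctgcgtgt
Herpud1 (chr8:94386179-94386478, plus strand): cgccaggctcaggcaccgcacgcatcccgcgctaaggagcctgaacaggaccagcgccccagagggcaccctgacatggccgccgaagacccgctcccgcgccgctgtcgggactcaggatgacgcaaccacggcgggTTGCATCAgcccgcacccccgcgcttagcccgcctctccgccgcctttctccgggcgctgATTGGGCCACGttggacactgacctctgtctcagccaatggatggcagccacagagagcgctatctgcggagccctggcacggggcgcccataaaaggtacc

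No ER gene of the 33 tested was called changed between the genotypes, whereas 360 of all 8743 genes were (4.12%, made up of 2.42% higher and 1.69% lower in Blimp1 gfp/gfp). At an unadjusted p under 0.05 the limma fit gave 5 of the 33 (15.2%), against 18.5% of all genes. These were Hspa5, with a higher mean in Blimp1 gfp/gfp (the background for that direction was 11.3%), and Xbp1, Ddit3, Ern1 and Herpud1, with a lower mean there (background 7.22%). The arrays of the genotypes did not overlap for 5 of the 33 genes (15.2%), against 25.8% of all genes. Of these, Hspa5, Sec11c and Ssr3 lay above in Blimp1 gfp/gfp, as did 15.4% of all genes, and Xbp1 and Ddit3 lay below, as did 10.4%. With both directions counted, both shares of the ER genes lay below those of all genes. By direction, the non-overlap shares (3 above and 2 below of 33) also lay below those of all genes. At an unadjusted p under 0.05 the directions parted. The 1 higher gene of 33 was a smaller share than 11.3%, and the 4 lower genes were a larger share than 7.22%. Of those 4 genes, 3 belonged to the 5 tested sensors and transcription factors. No test of these gaps was made.

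Differences of the 33 genes ran from -1.002 (Ern1) to 0.54 (Hspa5), with 21 negative and 12 positive. That split depended on the scaling, with 12 negative under median scaling. Of the 10 ER genes with more than 1 probe passing the detection filter, 6 had such probes of opposite sign. The median of the 33 differences was -0.08, against 0.03 over all genes, where the 25th and 75th percentiles were -0.17 and 0.25. The median size of a difference, whatever its sign, was 0.166 for the ER genes, against 0.217 for all genes. For 26 of the 33 genes (78.8%) the 95% confidence interval lay wholly within a 2-fold difference either way, against 73.5% of all genes. For 14 (42.4%) it lay within 1.5-fold, against 32.7% of all genes, and for the other ER genes a difference of that size lay within the interval.

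**Figure D1:**
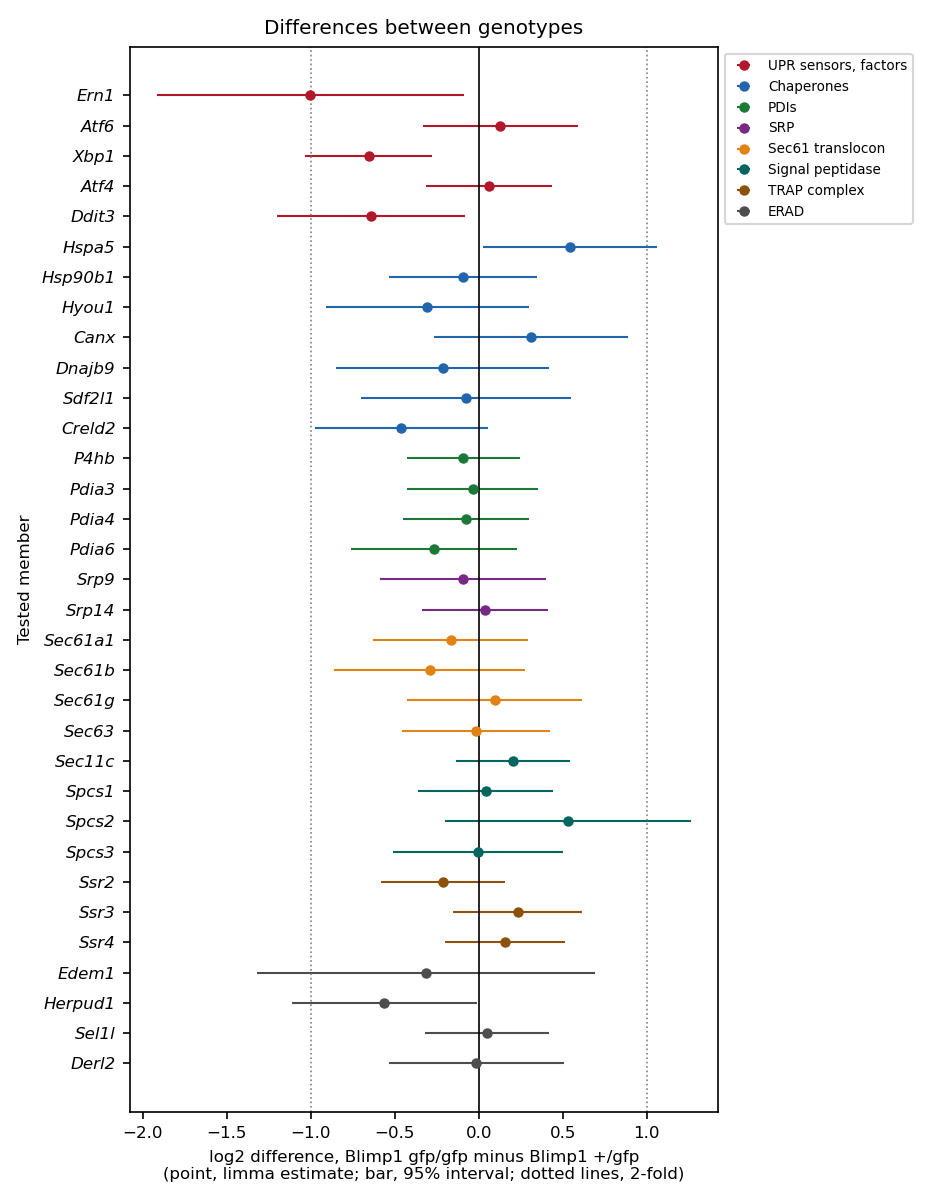
Difference in log2 intensity (Blimp1 gfp/gfp minus Blimp1 +/gfp) for each of the 33 tested ER genes, ordered by role, with bars for the 95% confidence interval of the limma fit and dotted lines at a 2-fold difference. The point estimates run from -1.002 (Ern1) to 0.54 (Hspa5), and 5 intervals exclude 0.

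Among the sensors and transcription factors of the unfolded protein response, 0 of 5 tested genes were called changed, and the median difference was -0.64. Xbp1, whose spliced mRNA encodes the main activator of ER chaperone and secretory genes, had 11.97, 12.19 and 12.19 in Blimp1 gfp/gfp, against 12.998, 12.67 and 12.64 in Blimp1 +/gfp. All 3 Blimp1 gfp/gfp arrays lay below all 3 Blimp1 +/gfp arrays. Means were 12.11 ± 0.13 in Blimp1 gfp/gfp and 12.77 ± 0.20 in Blimp1 +/gfp (SD, n = 3 arrays each). The difference was -0.66 ± 0.16 SE (95% interval -1.04 to -0.28), and it missed the threshold (limma, unadjusted p = 0.00479, Benjamini-Hochberg adjusted p = 0.07996). Over the other processing settings tried the adjusted p of Xbp1 ran from 0.0248 to 0.282, and it passed in 4 of 20. Xbp1 has a single probe on the array, which does not tell the spliced from the unspliced mRNA here.

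Ern1 encodes IRE1α, the sensor that splices Xbp1. It had 8.96, 8.35 and 9.01 in Blimp1 gfp/gfp, against 10.12, 10.28 and 8.93 in Blimp1 +/gfp. Blimp1 +/gfp replicates 1 and 2 were high, while replicate 3 lay within the range of the Blimp1 gfp/gfp arrays. Ern1 differed by -1.002 ± 0.38 SE, with an interval from -1.92 to -0.09 (limma adjusted p = 0.225). Without Blimp1 +/gfp replicate 3 the difference was -1.44 and passed the threshold (limma adjusted p = 0.0315).

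Ddit3 encodes CHOP, a factor induced through the PERK and ATF4 branch under lasting stress. Its levels were 8.52, 8.20 and 8.19 in Blimp1 gfp/gfp, against 9.43, 8.69 and 8.72 in Blimp1 +/gfp. All Blimp1 gfp/gfp arrays lay below all Blimp1 +/gfp arrays, by a narrow margin, and replicate 1 of Blimp1 +/gfp stood highest. The difference was -0.64 ± 0.24 SE, with an interval from -1.20 to -0.08 (limma adjusted p = 0.206), and it was -0.39 without that array.

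Atf4 encodes the factor translated when PERK or other stress kinases are active, and it had 10.98, 10.77 and 10.999 in Blimp1 gfp/gfp, against 11.02, 10.64 and 10.90 in Blimp1 +/gfp. The arrays of the genotypes lay within the same range. The difference was 0.06 ± 0.16 SE, with an interval from -0.31 to 0.44 (limma adjusted p = 0.891). A further pair of kept Atf4 probes gave -0.20 and -0.32, so the sign depends on the probe.

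Atf6, the sensor that is itself cut to release a transcription factor, was dim and was detected on 2 of 3 arrays of each genotype. It had 6.14, 5.75 and 5.54 in Blimp1 gfp/gfp, against 5.50, 5.77 and 5.77 in Blimp1 +/gfp. These ranges overlapped, and the difference was 0.13 ± 0.19 SE (limma adjusted p = 0.799).

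**Figure D2:**
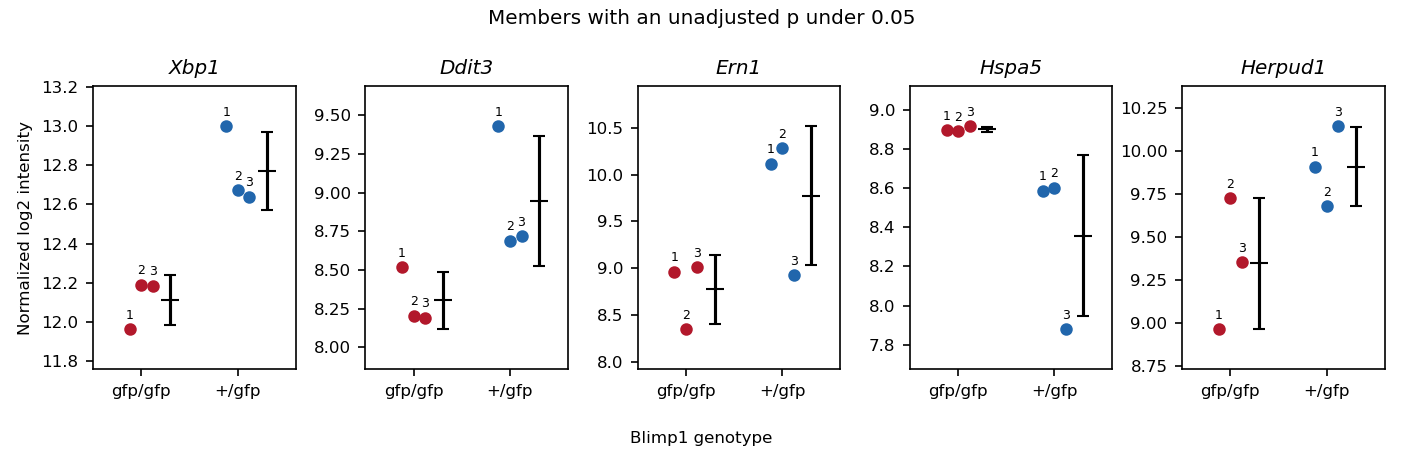
Log2 intensity of Xbp1, Ddit3, Ern1, Hspa5 and Herpud1 on each array (points) with the mean and SD of 3 arrays per genotype, Blimp1 gfp/gfp left and Blimp1 +/gfp right. Xbp1 and Ddit3 lie lower on every Blimp1 gfp/gfp array, Hspa5 lies higher on every one, and Ern1 and Herpud1 overlap.

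Among ER chaperones and co-chaperones, 0 of 7 tested genes were called changed, and the median difference was -0.09. Hspa5 encodes BiP, the abundant ER chaperone that also holds the stress sensors inactive, and its promoter holds the ERSE printed above. It had 8.90, 8.89 and 8.92 in Blimp1 gfp/gfp, against 8.59, 8.602 and 7.88 in Blimp1 +/gfp. The Blimp1 gfp/gfp arrays lay close together and above all Blimp1 +/gfp arrays, of which replicate 3 was far the lowest. The difference was 0.54 ± 0.22 SE, with an interval from 0.03 to 1.06 (limma adjusted p = 0.248). Without Blimp1 +/gfp replicate 3 it was 0.31.

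Hsp90b1 encodes GRP94, the ER form of HSP90, and has both ERSE matches listed for it in its window. Its levels were 13.09, 12.65 and 12.61 in Blimp1 gfp/gfp, against 13.08, 12.80 and 12.76 in Blimp1 +/gfp. Replicate 1 was highest in both genotypes and the ranges overlapped almost fully. The difference was -0.09 ± 0.19 SE, with an interval from -0.53 to 0.35 (limma adjusted p = 0.855), and its sign turned under median scaling (0.073).

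Canx encodes calnexin, a membrane-bound lectin chaperone of glycoproteins. It had 8.87, 8.59 and 8.57 in Blimp1 gfp/gfp, against 8.37, 8.82 and 7.92 in Blimp1 +/gfp. The ranges overlapped through Blimp1 +/gfp replicate 2, and the difference was 0.31 ± 0.24 SE (interval -0.27 to 0.89, limma adjusted p = 0.575). Without Blimp1 +/gfp replicate 3 the Canx difference was 0.088, and with array weights it was 0.064. Its soluble counterpart calreticulin (Calr) was not detected on any array, with 5.18, 5.45 and 4.87 in Blimp1 gfp/gfp, against 5.02, 5.15 and 5.11 in Blimp1 +/gfp, so no comparison of it was made.

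Dnajb9 encodes ERdj4, a BiP co-chaperone and a known XBP1 target. It had 6.96, 6.31 and 6.92 in Blimp1 gfp/gfp, against 7.35, 6.94 and 6.56 in Blimp1 +/gfp. These overlapped, and the difference was -0.22 ± 0.27 SE (interval -0.85 to 0.42, limma adjusted p = 0.748). Creld2, a stress-induced ER protein, had 10.69, 10.52 and 10.20 in Blimp1 gfp/gfp, against 11.26, 10.61 and 10.93 in Blimp1 +/gfp. Only the lowest Blimp1 +/gfp array fell within the Blimp1 gfp/gfp range, and the difference was -0.46 ± 0.22 SE (interval -0.98 to 0.05, limma adjusted p = 0.323). Hyou1, the nucleotide exchange factor for BiP, differed by -0.31 ± 0.25 SE and Sdf2l1, an ER chaperone complex component, by -0.08 ± 0.26 SE, and neither was called changed (limma adjusted p = 0.603 and 0.927). Dnajc3 and Manf were not detected on any array.

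The 4 protein disulfide isomerases, which form and rearrange disulfide bonds of new proteins, had a median difference of -0.08, and 0 were called changed. P4hb, the archetypal PDI, had 12.48, 12.44 and 12.39 in Blimp1 gfp/gfp, against 12.46, 12.71 and 12.42 in Blimp1 +/gfp. The arrays overlapped, and the difference was -0.09 ± 0.14 SE, with an interval from -0.43 to 0.24 (limma adjusted p = 0.807). Under median scaling it was 0.059. Pdia3 (ERp57), Pdia4 (ERp72) and Pdia6 (P5) differed by -0.04, -0.08 and -0.27. The 3 of these 4 genes whose whole interval lay within 1.5-fold were P4hb, Pdia3 and Pdia4.

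Targeting to the ER was represented by the signal recognition particle, which captures signal peptides on the ribosome. Srp9 and Srp14, the pair that pauses translation, differed by -0.09 ± 0.21 SE and 0.04 ± 0.16 SE, and neither was called changed (limma adjusted p = 0.873 and 0.943). Srp54a, the subunit that binds the signal peptide, was not detected on any array.

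At the Sec61 translocon, the channel through which proteins enter the ER, 0 of 4 tested genes were called changed and the median difference was -0.09. Sec61a1, the pore-forming subunit, had 10.66, 10.37 and 10.46 in Blimp1 gfp/gfp, against 10.90, 10.78 and 10.31 in Blimp1 +/gfp. Blimp1 +/gfp replicate 3 was the lowest of the 6 arrays, the other two of that genotype the highest. The difference was -0.17 ± 0.19 SE, with an interval from -0.63 to 0.29 (limma adjusted p = 0.728), and a further, dimmer kept probe gave -0.59.

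Sec61b, a small tail-anchored subunit, had 12.11, 11.86 and 11.77 in Blimp1 gfp/gfp, against 12.65, 12.16 and 11.80 in Blimp1 +/gfp. The ranges overlapped, and the difference was -0.29 ± 0.24 SE (interval -0.86 to 0.27, limma adjusted p = 0.593). The other kept Sec61b probe gave 0.29, the opposite sign. Sec61g, the remaining small subunit, differed by 0.09 ± 0.22 SE, and Sec63, which recruits BiP to the channel, by -0.02 ± 0.19 SE. Sec62, its partner in post-translational import, was detected on 2 Blimp1 +/gfp arrays at most and was not tested.

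Signal peptidase, the complex that cuts off signal peptides, had a median difference of 0.12 over 4 genes, 0 of which were called changed. Its catalytic subunit Sec11c had 12.12, 12.10 and 11.98 in Blimp1 gfp/gfp, against 11.93, 11.96 and 11.69 in Blimp1 +/gfp. The genotypes did not overlap, by a margin narrower than the spread within either, and the difference was 0.20 ± 0.14 SE (interval -0.13 to 0.54, limma adjusted p = 0.516). Spcs2 had 6.33, 6.22 and 6.30 in Blimp1 gfp/gfp, against 5.89, 5.05 and 6.32 in Blimp1 +/gfp, where it was detected on 2 arrays (difference 0.53 ± 0.31 SE, limma adjusted p = 0.429). The low value of Blimp1 +/gfp replicate 2 stood apart. Spcs1 and Spcs3 differed by 0.04 and -0.01.

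The translocon-associated protein complex, which helps chosen signal peptides enter the channel, had a median difference of 0.16 over 3 genes, with 0 called changed. Ssr3 had 8.97, 9.02 and 8.97 in Blimp1 gfp/gfp, against 8.83, 8.95 and 8.49 in Blimp1 +/gfp. The Blimp1 gfp/gfp arrays lay above the others by a small step, with a difference of 0.23 ± 0.16 SE (interval -0.15 to 0.62, limma adjusted p = 0.518). Ssr2 differed by -0.21 ± 0.16 SE and Ssr4 by 0.16 ± 0.15 SE. Ssr1 had no probe with that symbol alone, as was also true of Dnajb11.

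ER-associated degradation, which sends misfolded proteins back to the cytosol for the proteasome, had a median difference of -0.16 over 4 tested genes, with 0 called changed. Herpud1, a stress-induced scaffold of the degradation complex, had 8.97, 9.73 and 9.35 in Blimp1 gfp/gfp, against 9.91, 9.68 and 10.14 in Blimp1 +/gfp. Blimp1 gfp/gfp replicate 2 lay within the Blimp1 +/gfp range, while the other two lay below it. The difference was -0.56 ± 0.23 SE, with an interval from -1.11 to -0.01 (limma adjusted p = 0.260), and it was -0.37 without Blimp1 gfp/gfp replicate 1.

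Sel1l, the adaptor of the ubiquitin ligase HRD1, had 9.91, 10.33 and 10.03 in Blimp1 gfp/gfp, against 10.04, 10.07 and 10.02 in Blimp1 +/gfp. The Blimp1 +/gfp arrays lay inside the Blimp1 gfp/gfp range, and the difference was 0.05 ± 0.15 SE (interval -0.32 to 0.42, limma adjusted p = 0.917). Edem1, which hands over misfolded glycoproteins, was detected on 2 Blimp1 gfp/gfp and 3 Blimp1 +/gfp arrays, with 5.01, 6.79 and 5.75 in Blimp1 gfp/gfp, against 5.95, 6.42 and 6.13 in Blimp1 +/gfp. The spread within Blimp1 gfp/gfp was wide, and the interval of its difference of -0.31 ran from -1.32 to 0.69. Derl2, of the derlin channel family, differed by -0.01 ± 0.22 SE. Derl1 was not detected on any array, and Derl3 was detected on 1 Blimp1 +/gfp array, with 5.43, 5.29 and 5.12 in Blimp1 gfp/gfp, against 5.34, 5.50 and 6.09 in Blimp1 +/gfp.

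Tested genes with an ERSE or ERSE-II in the promoter window did not share a sign. Of 6 such genes, 2 had positive and 4 negative differences, with a median of -0.18 and a range from -0.56 (Herpud1) to 0.54 (Hspa5). The 21 other tested genes with a window did not share a sign either, with 8 positive and 13 negative differences. Their median was -0.04, with a range from -1.002 to 0.53. Of the ER genes with a match that were not tested, Calr, Dnajc3 and Derl3 missed the detection filter and Dnajb11 had no probe of its own.

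The level of the ER genes as a group differed between arrays of the same genotype. The median deviation of the 33 genes from their own mean over 6 arrays was 0.08, -0.06 and -0.08 on Blimp1 gfp/gfp replicates 1 to 3, against 0.22, 0.06 and -0.15 on Blimp1 +/gfp replicates 1 to 3. Blimp1 +/gfp replicate 1 held the highest value of the 6 arrays for 15 of the 33 genes, and Blimp1 +/gfp replicate 3 the lowest for 12. The highest and the lowest array median thus belonged to the same genotype. The median deviation of all 8743 genes was 0.08, -0.01 and 0.01 in Blimp1 gfp/gfp, against 0.04, -0.02 and -0.07 in Blimp1 +/gfp. The median of all genes was thus lowest on Blimp1 +/gfp replicate 3 too. Highest and lowest arrays were not counted over all genes, so those counts are not shown to be particular to the ER genes.

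**Figure D3:**
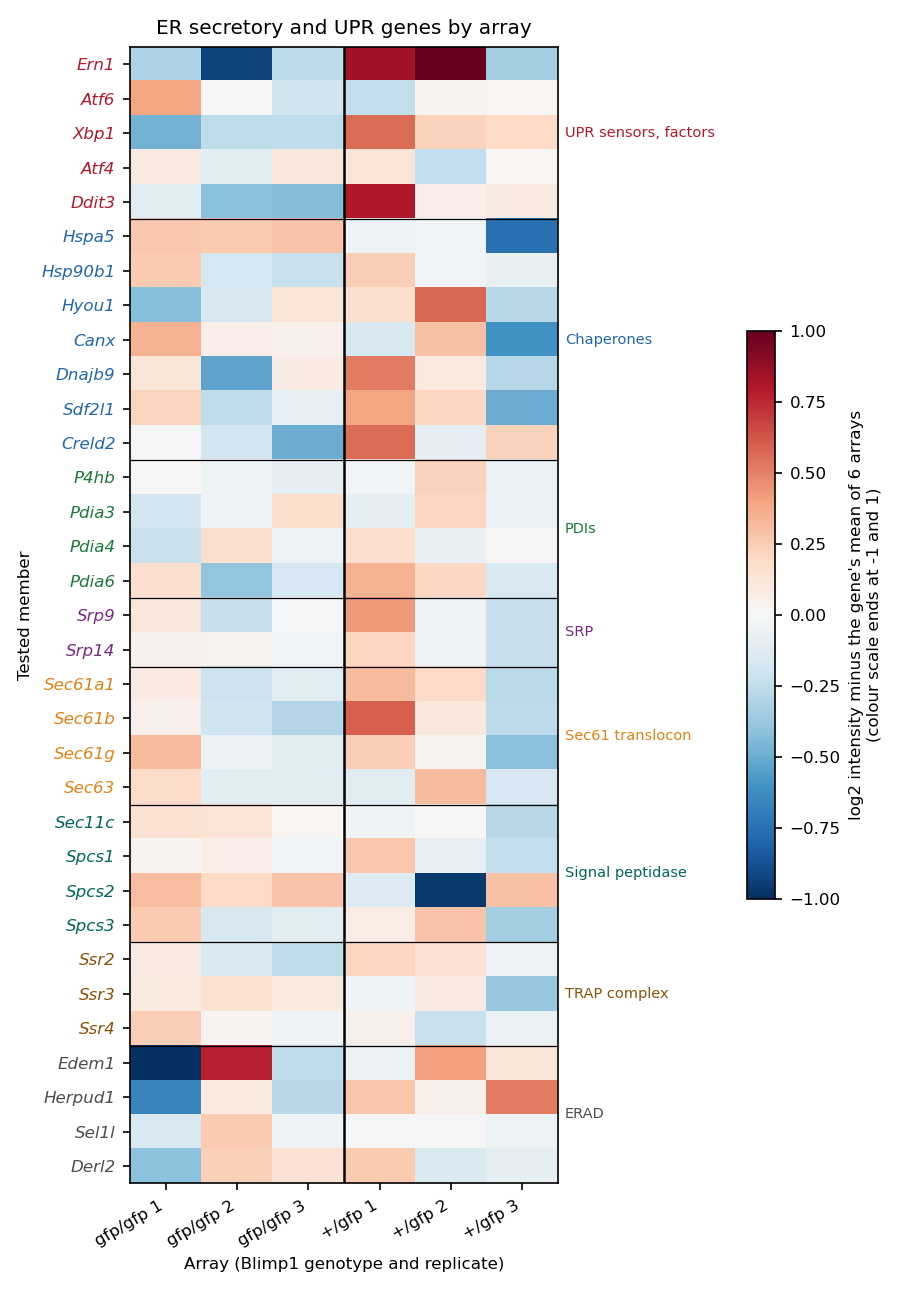
Colour map of log2 intensity minus the gene's mean over 6 arrays (red above, blue below, scale ending at -1 and 1) for the 33 tested ER genes in rows, grouped by role, with the 3 Blimp1 gfp/gfp arrays left and the 3 Blimp1 +/gfp arrays right. Blimp1 +/gfp replicate 1 is mostly red (median 0.22) and Blimp1 +/gfp replicate 3 mostly blue (median -0.15).

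Markers of other cell types also differed between arrays, and their part in the differences of ER genes was not tested. Of 16 B cell and plasma cell markers, which matter here because plasma cells are rich in ER transcripts, 14 had a probe, 9 were tested and 2 were higher in Blimp1 gfp/gfp. Blk, a B cell kinase, had 9.66, 9.97 and 9.17 in Blimp1 gfp/gfp, against 5.51, 5.39 and 6.56 in Blimp1 +/gfp (limma adjusted p = 0.00576). Pou2af1, a B cell coactivator, had 10.64, 10.85 and 10.38 in Blimp1 gfp/gfp, against 8.11, 7.68 and 8.69 in Blimp1 +/gfp (limma adjusted p = 0.00744). The plasma cell markers Jchain and Sdc1 and the B cell factor Pax5 were not detected on any array. Mzb1, an ER protein of plasma cells, had 11.10, 8.93 and 8.50 in Blimp1 gfp/gfp, against 11.34, 10.10 and 11.10 in Blimp1 +/gfp (limma adjusted p = 0.368). Cd79a, of the B cell receptor, had 8.53, 7.35 and 7.64 in Blimp1 gfp/gfp, against 5.15, 5.36 and 7.30 in Blimp1 +/gfp (limma adjusted p = 0.146). Blimp1 gfp/gfp replicate 1, with the highest Mzb1 and Tnfrsf17 (8.71) of its genotype, had the lowest Xbp1 of the 6 arrays (11.97). It also had the highest level of its genotype for the ER gene Fkbp11 (6.38). Blimp1 +/gfp replicate 1 had the highest level of the 6 arrays for Mzb1 (11.34) and Xbp1 (12.998). Blimp1 +/gfp replicate 3, with Mzb1 at 11.10, had the lowest Xbp1 of its genotype (12.64). No relation between these levels was tested. Irf4, also on the list, had 11.65, 11.75 and 11.26 in Blimp1 gfp/gfp, against 11.13, 10.58 and 10.325 in Blimp1 +/gfp (limma adjusted p = 0.114). The level of the list summed over its genes ran from 9.12 to 9.92 in Blimp1 gfp/gfp and from 8.61 to 9.27 in Blimp1 +/gfp. This summed level is led by bright genes, and Irf4 was the brightest of the list on every Blimp1 gfp/gfp array. Which cells that RNA came from was not tested.

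Myeloid and dendritic cell markers differed in which arrays they stood high on. The myeloid list of 14 (13 with a probe, 7 tested, 1 higher, Cebpa) had a summed level from 7.95 to 8.84 in Blimp1 gfp/gfp and from 7.93 to 10.15 in Blimp1 +/gfp. Its 7 tested genes had a median difference of -1.88, with 5 negative and 2 positive. The dendritic and antigen presentation list of 11 (9 tested, 1 lower, Irf8, which passed in 13 of 20 other settings with a limma adjusted p of up to 0.125) had 10.73 to 11.34 in Blimp1 gfp/gfp and 10.98 to 12.84 in Blimp1 +/gfp. Lyz2, which encodes lysozyme, had 10.28, 7.35 and 7.16 in Blimp1 gfp/gfp, against 10.29, 10.55 and 10.94 in Blimp1 +/gfp (limma adjusted p = 0.177). The antigen presentation gene H2-Ab1 reached 14.47 in Blimp1 +/gfp replicate 3, the array that was lowest for 12 ER genes and in the median deviation of all genes. Cell cycle markers, of which 0 of 12 tested were called changed, had median deviations of 0.67, -0.54 and -0.11 in Blimp1 gfp/gfp and 0.12, 0.54 and -0.65 in Blimp1 +/gfp. Of 8 erythroid and megakaryocyte markers, 3 were tested and 0 called changed, with a summed level from 7.62 to 10.39 in Blimp1 gfp/gfp and from 5.34 to 10.87 in Blimp1 +/gfp. The haemoglobin gene Hba-a1 had 9.83, 12.90 and 11.31 in Blimp1 gfp/gfp, against 5.78, 8.18 and 13.40 in Blimp1 +/gfp, and was thus highest on Blimp1 +/gfp replicate 3 too. Of 9 CD8 and NK cell markers, 6 were tested and 0 called changed, with 8.75 to 9.72 in Blimp1 gfp/gfp and 9.42 to 9.66 in Blimp1 +/gfp. Prf1, which encodes perforin, was detected on 0 Blimp1 gfp/gfp and 3 Blimp1 +/gfp arrays (-1.01 ± 0.24 SE, limma adjusted p = 0.0762).

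Among regulatory T cell markers 1 of 8 was lower, Tnfrsf18, which encodes GITR (-1.11 ± 0.18 SE, limma adjusted p = 0.0242). Tnfrsf18 passed in 13 of 20 other settings, with a limma adjusted p of up to 0.0990, and not under median scaling (0.0704). Cd3e of the T cell receptor complex differed by 0.02 ± 0.16 SE.

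The wider ER pathway was examined through 120 further genes in 5 lists, of which 93 were tested and 0 were called changed. At an unadjusted p under 0.05 there were 13 (14.0%), 7 higher and 6 lower in Blimp1 gfp/gfp, against 18.5% of all genes. The genotypes did not overlap for 27 (29.0%), against 25.8% of all genes. The median difference was -0.02, and list medians ran from -0.08 for other unfolded protein and integrated stress response genes (16 tested) to 0.06 for other translocation and oligosaccharyltransferase genes (14 tested).

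**Figure D4:**
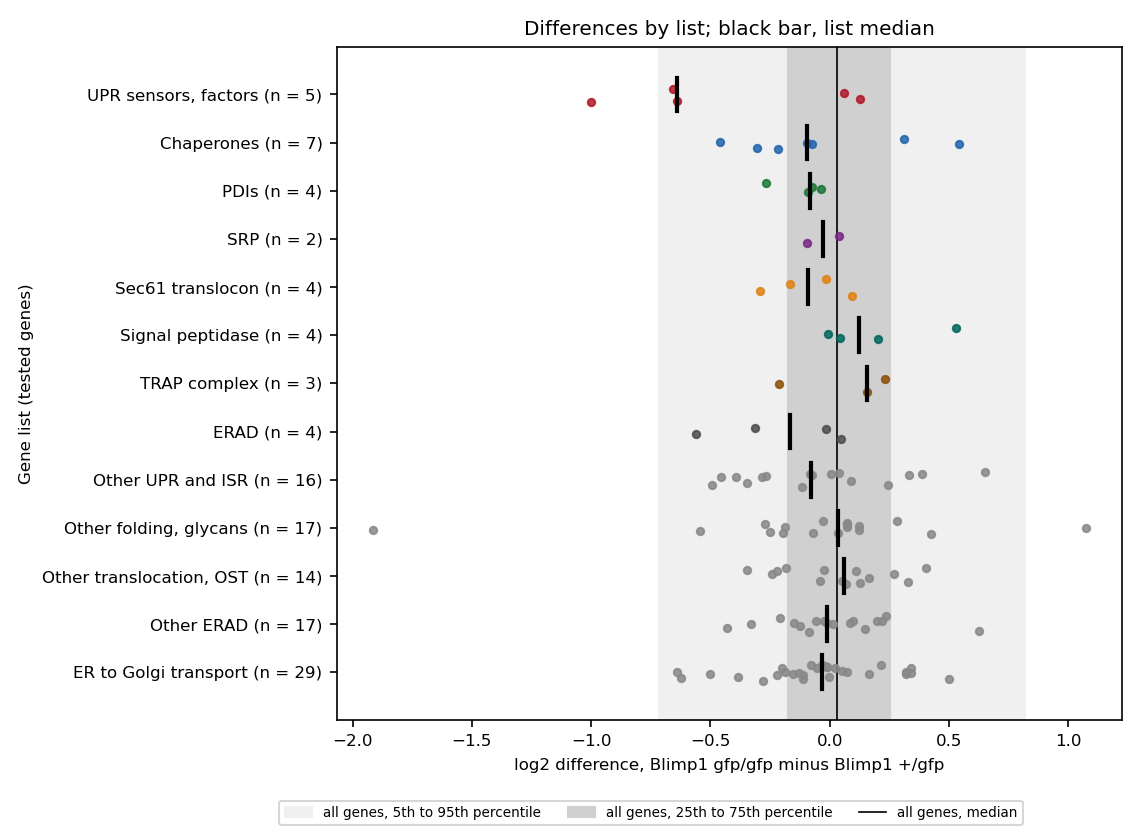
Difference in log2 intensity (Blimp1 gfp/gfp minus Blimp1 +/gfp) of each tested gene (points) by role, with 8 ER gene roles in colour above the 5 wider lists in grey, a black bar for each list's median, bands for the 5th to 95th and 25th to 75th percentiles of all genes and a line for their median. Role medians run from -0.64 for the sensors and factors to 0.16 for the translocon-associated protein complex, and Fkbp11 is the point at -1.92.

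Fkbp11, an ER prolyl isomerase of secretory cells, had 6.38, 5.44 and 5.06 in Blimp1 gfp/gfp, where 1 array detected it, against 8.21, 7.34 and 7.08 in Blimp1 +/gfp, where all 3 did. The genotypes did not overlap, and the difference was -1.92 ± 0.42 SE (interval -2.90 to -0.93, limma adjusted p = 0.0574). Over the other settings its adjusted p ran from 0.00896 to 0.177, and it passed in 6 of 19. The size of the Fkbp11 difference depended on the background step, at -0.87 without background correction and -1.14 with a normexp offset of 50, against -2.26 with array weights.

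In the list of ER to Golgi transport (29 tested), Mia3, which encodes the cargo receptor TANGO1, had 7.96, 8.12 and 8.21 in Blimp1 gfp/gfp, against 8.82, 8.71 and 8.62 in Blimp1 +/gfp. Sec24d, a cargo-binding subunit of the COPII coat, had 7.59, 7.78 and 7.78 in Blimp1 gfp/gfp, against 8.41, 8.51 and 8.15 in Blimp1 +/gfp. Every Blimp1 gfp/gfp array lay below every Blimp1 +/gfp array for both genes. Their differences of -0.62 ± 0.14 SE and -0.64 ± 0.15 SE missed the threshold (limma adjusted p = 0.0645 and 0.0762). Mia3 depended on the probe, with -0.35 for the mean over kept probes and -0.077 for its dimmest kept probe (limma adjusted p = 0.493 and 0.954). Without background correction Sec24d was -0.42.

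Other genes of the wider lists had differences of both signs. Clgn, which encodes the calnexin relative calmegin, had 7.74, 7.39 and 7.53 in Blimp1 gfp/gfp, against 6.89, 7.02 and 5.52 in Blimp1 +/gfp, where 2 arrays detected it (1.08 ± 0.39 SE, limma adjusted p = 0.205). With an array left out, the Clgn difference was as low as 0.60. Trib3, a pseudokinase induced by ATF4 and CHOP, had 6.34, 6.41 and 6.35 in Blimp1 gfp/gfp, against 6.06, 5.43 and 5.65 in Blimp1 +/gfp, where 1 array detected it (0.65 ± 0.19 SE, limma adjusted p = 0.118). Both lay higher on every Blimp1 gfp/gfp array and neither was called changed. Without background correction Clgn differed by 0.51 and Trib3 by 0.24. Cebpb, a partner of CHOP, differed by -0.49 ± 0.18 SE. Of the degradation list, Ube2j1, an ER ubiquitin-conjugating enzyme, differed by 0.63 ± 0.20 SE (0.33 for the mean over kept probes and 0.037 for its dimmest kept probe), and Selenos, an ER selenoprotein, by -0.43 ± 0.15 SE. Of the translocation list, Krtcap2 differed by -0.35 ± 0.16 SE and Srp72 by 0.33 ± 0.18 SE.

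**Figure D5:**
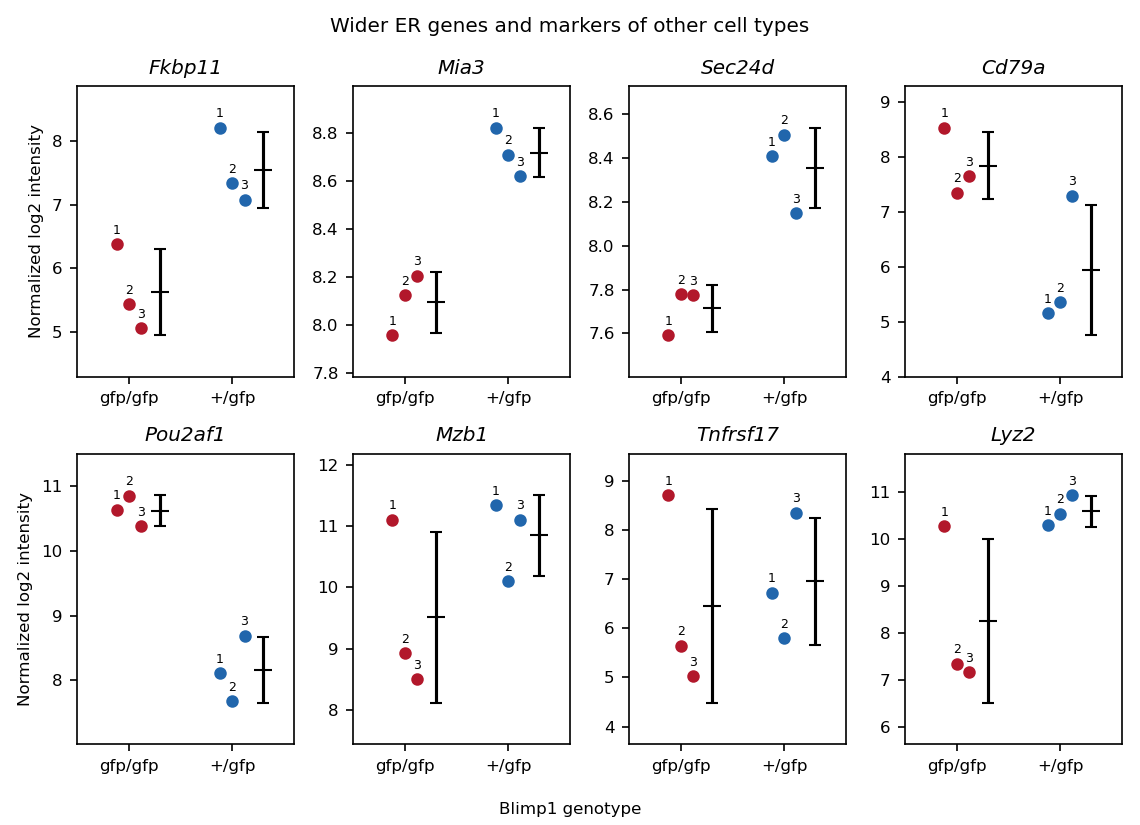
Log2 intensity on each array (numbered points, replicates 1 to 3) with the mean and SD of 3 arrays per genotype, Blimp1 gfp/gfp left and Blimp1 +/gfp right, for 3 wider ER genes and 5 markers of other cell types. Fkbp11, Mia3 and Sec24d lie lower on every Blimp1 gfp/gfp array, Cd79a and Pou2af1 lie higher on every one, and of the Blimp1 gfp/gfp arrays replicate 1 is the highest for Mzb1, Tnfrsf17 and Lyz2, within the Blimp1 +/gfp range for Mzb1 and below it for Lyz2.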

How the data were processed

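Per the file headers, the authors deposited a mean bead intensity and a detection p-value for each of 46632 probes on 6 arrays. These intensities were not background-subtracted or normalized. A second table holds the authors' deposited log2 values, which neqc applied to the intensities matched within 0.0975. Its direction and centring are known from that match, and it was used as an alternative and to choose probes. BeadStudio and limma are named in the submitters' processing notes, with settings not given in the sources used here.

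Intensities were processed with neqc (limma 3.58.1, R 4.3.3): normexp correction with an offset of 16, quantile normalization and log2. Probes with 1 symbol (29976) and a detection p under 0.05 on at least 3 arrays were reduced to 8743 genes. The genotypes were compared with lmFit and eBayes, with Benjamini-Hochberg adjustment over 8743 genes. The fit was tested on simulated data. The marker level summed over a list is the log2 of its mean linear intensity. Precision is set by having 3 arrays of each genotype.

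The ER genes, the other lists and the tests were chosen with earlier results of these data known. Values on every array are given for ER genes with an unadjusted p under 0.05 and for a set of ER genes chosen by name. Of each wider list the 2 genes with the smallest p are named, and of the marker lists up to 3 and some by name. The Sec24 paralogues other than Sec24d were picked after their values were seen. The per-array values of Creld2, Sec11c, Spcs2, Ssr3 and Mzb1 were added after seeing them. Alternatives were other background corrections, scalings, filters, probe summaries, variance models and thresholds, and the omission of each array. Figures were drawn with matplotlib 3.10.9. Probes with several symbols or none were left out.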

Additional observations from a re-analysis of the deposited data

How the results depend on the processing

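The limits are the 3 arrays per genotype, the BeadChips that hold 1 genotype each, and dim or conflicting probes. The count of genes changed, all genes tested, was 360 in the main analysis. It was 827 with array weights, 171 with a replicate block, 71 at a threshold of 0.01, 668 at a threshold of 0.10, and 63 to 346 when an array was left out. Of the ER genes changed (0 in the main analysis), there was 1, Xbp1, with a normexp offset of 50, without background correction, with a trended and robust variance, with array weights and at a threshold of 0.10. Leaving out an array gave 0 to 1, the 1 being Ern1. Of the wider list genes changed (0 in the main analysis), there were 1 under median scaling, cyclic loess, trended variance and a replicate block, 4 with array weights, 3 at a threshold of 0.10, and 0 to 1 without an array. Of the markers changed (5 in the main analysis), there were 8 with array weights, 3 with a replicate block, 3 at a threshold of 0.01, and 1 to 6 without an array.

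The median difference of the ER genes was 0.10 under median scaling and ran from -0.15 to 0.00499 without an array. Median scaling also moved the median of all genes to 0.16 and the share of higher calls to 71.0%, against 58.9% in the main analysis. Relative to all genes, the ER genes lay at -0.11 in the main analysis, -0.07 under median scaling and -0.10 under cyclic loess. Differences of 12 ER genes were negative under median scaling, against 21 in the main analysis. Counted from the median of all genes, 21 were negative under both. The genotypes did not overlap for 3 ER genes under median scaling and for 5 to 12 without an array.

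Signs turned for Hsp90b1 (0.073) and P4hb (0.059) under median scaling, for Atf4 (-0.16) and Sec61b (0.000703) with the mean over kept probes, for Atf4 (-0.32) and Sec61b (0.29) with the dimmest kept probe, and for Atf6 (-0.084) and Mcm2 (-0.086) with array weights. Without an array the range crossed 0 for Hsp90b1 (-0.24 to 0.00499), Cd3e (-0.063 to 0.12), Atf4 (-0.043 to 0.14), H2-Eb1 (-1.42 to 0.00358), Mcm2 (-0.13 to 0.44), Pcna (-0.062 to 0.61), Atf6 (-0.036 to 0.26), Edem1 (-0.76 to 0.10) and Sel1l (-0.070 to 0.14). The causes were not tested. The labels do not say whether same-numbered arrays shared more than a number. The r of their deviations was 0.19, -0.08 and 0.00, against -0.15 to 0.16 for arrays of different numbers. These values cannot decide it, so the replicate block was read as an alternative only.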

Other observations

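Paralogues of the COPII cargo adaptor Sec24 did not share a sign. Sec24b had 10.75, 10.88 and 10.86 in Blimp1 gfp/gfp, against 10.45, 10.55 and 10.47 in Blimp1 +/gfp, so that every Blimp1 gfp/gfp array lay above every Blimp1 +/gfp array. Its difference was 0.34 ± 0.13 SE (limma adjusted p = 0.212), whereas Sec24d differed by -0.64 ± 0.15 SE. Sec24a and Sec24c differed by -0.39 ± 0.29 SE and -0.20 ± 0.15 SE. None of the 4 paralogues was called changed, and the difference between them was not tested.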
